A study of Sus scrofa with 36 samples.

Results

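The integrin and laminin genes of the pig were followed across 36 bulk RNA-seq libraries of fibroblasts, induced pluripotent stem cell (iPSC) clones and cells differentiated from one clone. Members were taken by gene symbol alone: every gene whose symbol is ITGA or ITGB followed by a subunit number or letter, ITGBL1 included, or LAMA, LAMB or LAMC followed by a chain number. The pattern found 38 of the 20683 genes of the tables, namely 17 integrin alpha subunits, 8 integrin beta subunits, ITGBL1 and 12 laminin chains. ITGBL1 encodes a secreted protein with integrin-like repeats and is not a receptor subunit. The study compared clonal pig iPSC lines with fibroblasts and followed the differentiation of one line toward somite and toward endothelial, cardiac and neural fates.

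The 4 fibroblast libraries carry no label beyond their cell type. Clones 1, 2 and 3 are undifferentiated iPSC lines labelled PiPS-EP1 minusPD c4 p11, PiPS-EP5 minusPD minusA83 c12 p10 and PiPS-EP5 minusPD minusA83 c18 p15, with 3, 4 and 4 libraries; each is 1 line. Each remaining library comes from clone 8, a single line sampled in triplicate at 7 points: undifferentiated cells freed of mouse embryonic fibroblast feeder at day 0, primitive streak or mesendoderm made with E8A100ch3 at day 1, presomitic mesoderm made with S1LDN at day 2, somite made with S2LDN at day 3, endothelial cells at day 6, beating cardiomyocytes at day 9 and neural progenitors at day 24. The labels do not tell whether the libraries within a group derive from different cultures or animals, and the p-values below therefore measure library spread that may be technical.

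Library totals ran from 1845333 to 9727315 estimated counts in clone 8, from 24314241 to 69879325 in clones 1 to 3, and in fibroblasts from 26120236 to 36738189 in replicates 1 and 2 and from 6877298 to 7508792 in replicates 3 and 4. Marker genes set 2 libraries apart from their labels. The summed level of 10 cardiomyocyte markers in TPM, a level scaled to transcript length and library size, was 35384, 161 and 36672 in the day 9 libraries labelled cardiomyocyte replicates 1, 2 and 3, and 35787, 157 and 471 in the day 24 libraries labelled neural progenitor replicates 1, 2 and 3. The summed level of 8 neural markers was 101.5, 6988 and 78 TPM in the former and 104, 7793 and 7158 TPM in the latter. The library labelled cardiomyocyte replicate 2 therefore goes against its label, and so does the library labelled neural progenitor replicate 1; counts of members called that rest on day 9 or day 24 are given with and without both, and fold changes are marked by which they are. The day 3 libraries held little of their label's markers: 6 somite markers summed to 25.8 to 32.5 TPM there and to 63.3 to 80.6 TPM in the endothelial libraries. At day 3, 5 epithelial markers summed to 12310 to 16053 TPM and 4 smooth muscle markers to 4521 to 5435 TPM. The epithelial list was also high in undifferentiated cells, at 6114.5 to 6592.6 TPM at day 0. In bulk libraries a smaller share of cells of one type and less RNA per cell cannot be told apart.

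Laminins are cross-shaped proteins of the basement membrane, each built from 1 alpha, 1 beta and 1 gamma chain, and the chain composition names the trimer. Integrins are receptors of 1 alpha and 1 beta subunit that span the cell membrane and join the matrix outside to the actin or keratin cytoskeleton inside. ITGB1, the shared beta subunit, pairs with alpha subunits that bind laminin (ITGA3, ITGA6, ITGA7), collagen (ITGA1, ITGA2, ITGA10, ITGA11) or the arginine-glycine-aspartate motif of fibronectin and similar ligands (ITGA5, ITGA8, ITGAV). Human pluripotent cells are commonly cultured on laminin or vitronectin, which they bind through ITGA6 with ITGB1 and through ITGAV with ITGB5.

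Levels differed over several orders of magnitude between members. ITGB1 was the highest member in each of the 36 libraries, from 291.3 TPM in the library labelled cardiomyocyte replicate 2 to 5873 TPM in fibroblast replicate 4. It made up 89.1% to 97.9% of the summed TPM of the 8 beta subunits as means of the groups as labelled. By library its share was lowest in those with neural markers. These were neural progenitor replicates 2 and 3 (82.95% and 86.28%) and the library labelled cardiomyocyte replicate 2 (85.58%). At the other end, 20 members stayed below a group mean of 20 TPM in every group, 13 of them below 10 TPM and 9 below 5 TPM. The 9 lowest include the leukocyte and platelet subunits ITGAD, ITGAE, ITGAM, ITGB2, ITGB7 and ITGA2B, together with LAMA2, LAMB3 and LAMB4. The list of 7 leukocyte markers likewise summed to at most 51 TPM in any library. LAMB4 was at 0 in every fibroblast, clone and day 0 to day 3 library and was tested in none of the 12 comparisons, while 34 members were tested in all 12.

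**Figure D1:**
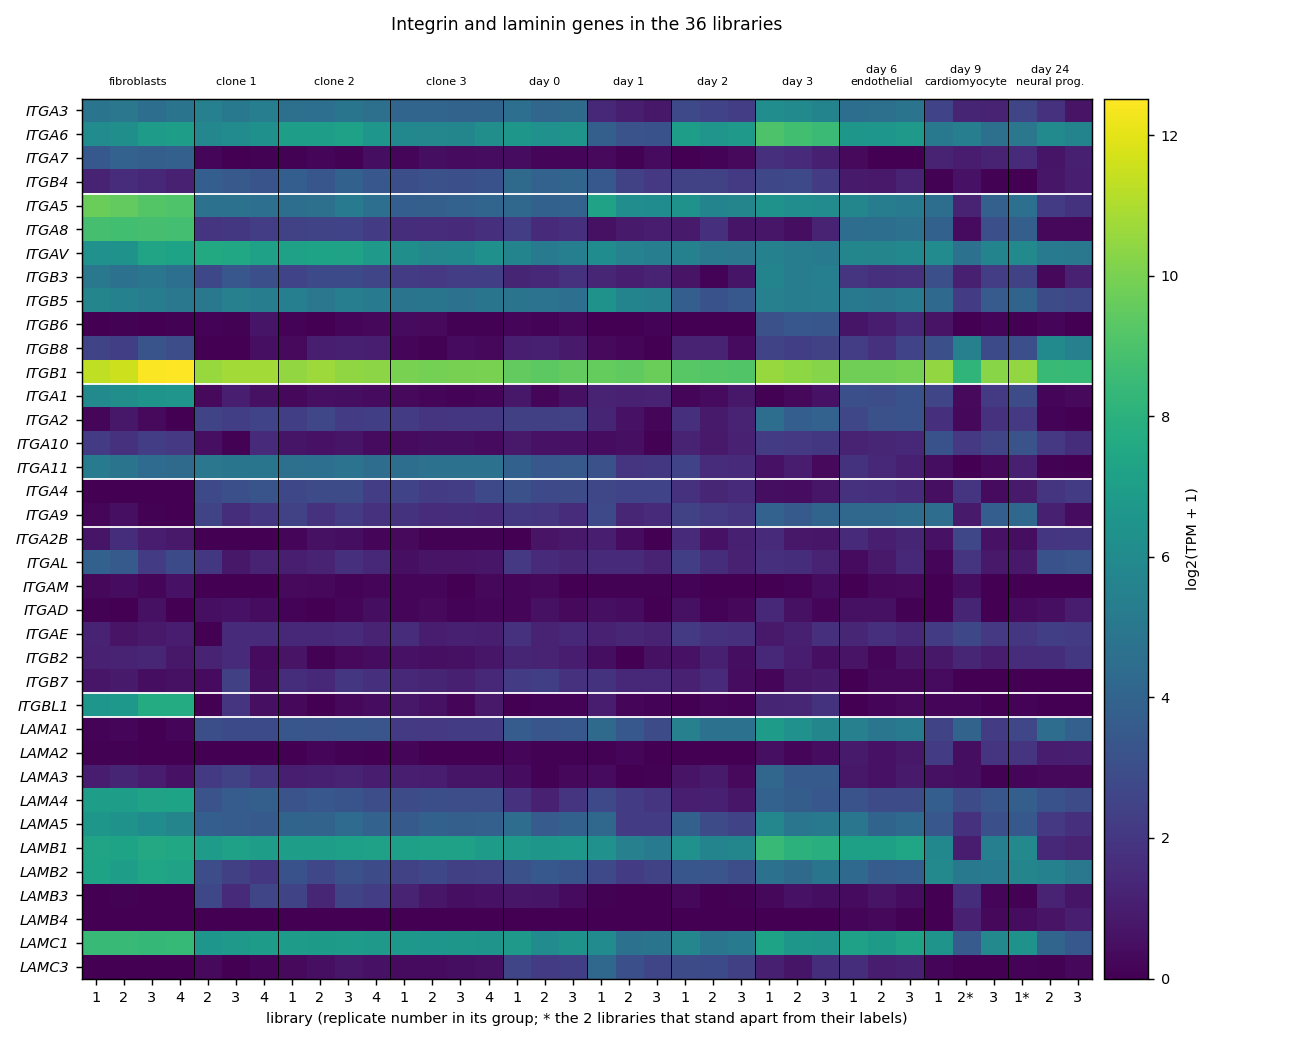
Level of 37 members (rows, grouped by ligand or role, laminin chains at the bottom) in the 36 libraries (columns, grouped by label) as log2(TPM + 1), from dark (0) to bright (high). ITGB1 is the brightest row in each library, ITGA5, ITGA8, ITGA1 and ITGBL1 are bright in the 4 fibroblast libraries, and the libraries labelled cardiomyocyte replicate 2 and neural progenitor replicate 1 (asterisks) resemble the other group's columns.

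All 38 symbols matched a RefSeq gene of the Sscrofa11.1 assembly, and some members lie close to one another in it. ITGA1 (chr16:32130265-32309917) and ITGA2 (chr16:32336240-32440311) are 26323 bp apart. ITGA1 was lower and ITGA2 higher in the clones than in fibroblasts, as the values below show. They moved in opposite directions from day 0 to day 1 as well, where ITGA1 was called higher and ITGA2 lower, both in every refit without 1 library. From day 2 to day 3 ITGA2 was called higher and ITGA1 was not called. In some other comparisons they moved the same way. Both were called higher at day 6 than at day 0, the ITGA2 call being lost in 4 of 6 refits without 1 library. Without the libraries labelled cardiomyocyte replicate 2 and neural progenitor replicate 1, both were higher at day 9 than at day 24 (log2 fold changes 5.25 and 5.67). ITGB1 lies at chr10:56078393-56130608, LAMB1 at chr9:107670120-107747242 and LAMA1 at chr6:100332843-100468457.

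The first comparison asks how the reprogrammed clones differ from fibroblasts. Fibroblasts held large amounts of a few chains, LAMA4, LAMA5, LAMB1, LAMB2 and LAMC1, and of the receptors ITGB1, ITGA5, ITGA8, ITGAV, ITGA6 and ITGA1. The clones had less of most of these and had LAMA1, LAMB3, ITGA4, ITGA9 and ITGA2, which were at or near 0 in fibroblasts. ITGB4, present at 1.21 to 2.02 TPM in fibroblasts, was higher in the clones too. Of 37 members tested, 27 passed at an adjusted p under 0.05 (edgeR quasi-likelihood test, Benjamini-Hochberg over all genes), 8 higher and 19 lower in the clones. This comparison called 74.6% of all 14660 genes tested, 38.6% higher and 35.9% lower, so the members' share of calls is near the background. In 23 of the 37 members the TPM of fibroblasts and clones did not overlap, where 52.1% of all genes did not. The median log2 fold change was -0.48 over the members and 0.11 over all genes.

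Among the laminin alpha chains, LAMA1, the chain of the early embryonic basement membrane, was 0.08, 0.11, 0 and 0.12 TPM in fibroblast replicates 1 to 4. Its lowest, median and highest levels in the 11 clone libraries were 3.27, 6.02 and 9.32 TPM, which do not overlap with fibroblasts (log2 fold change 5.90, SE 0.28, edgeR adjusted p 3.76e-12). LAMA4, a chain of mesenchymal and vascular basement membranes, was 127.2, 130.8, 149.8 and 153.2 TPM in fibroblasts. In the clones its lowest, median and highest levels were 6.33, 8.15 and 12.97 TPM (log2 fold change -4.18, SE 0.10). LAMA4 was thus high in each fibroblast library and low in each clone library. LAMA5, a chain of many epithelial and endothelial basement membranes, was 98.69, 85.97, 67.13 and 51.18 TPM in fibroblasts and 10.77, 13.26 and 19.5 TPM (lowest, median, highest) in the clones (log2 fold change -2.69, SE 0.16). As shares of the summed alpha chain TPM, LAMA4 was 64.85% ± 8.47 and LAMA5 34.65% ± 8.35 (SD, n = 4) in fibroblasts. Clone 1 held 33.6% ± 6.61 LAMA4, 35.8% ± 3.58 LAMA5 and 19.6% ± 2.6 LAMA1 (n = 3). LAMA5 reached 46.3% ± 3.08 in clone 2 and 53.5% ± 2.35 in clone 3 (n = 4 each).

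The beta and gamma chains divided differently. LAMB1, the widespread beta chain, was 156.2, 152.2, 186.5 and 175.3 TPM in fibroblasts, and 114.5, 131.9 and 144.2 TPM as lowest, median and highest in the clones. The groups did not overlap, with a small log2 fold change of -0.48 (SE 0.10, adjusted p 0.000384 by edgeR). LAMB2, the beta chain of muscle, nerve and glomerular basement membranes, was 150.5, 127.8, 161.9 and 146 TPM in fibroblasts but 3, 5.32 and 7.96 TPM (lowest, median, highest) in the clones. Its log2 fold change was -4.91 (SE 0.16), so that LAMB2 took 46.65% ± 1.67 of the summed beta chain TPM in fibroblasts (n = 4) and 3.41% to 4.82% as means of the clones. LAMC1, the gamma chain of most laminins, was 362.9, 343.4, 324.2 and 335.1 TPM in fibroblasts and 89.32, 109.3 and 119.6 TPM (lowest, median, highest) in the clones (log2 fold change -1.84, SE 0.10). LAMB3, a beta chain of epithelial laminin, went the other way at low levels, from 0 to 0.04 TPM in fibroblasts and from 0.41 to 5.54 TPM in the clones. Its fibroblast level rests on 2 counts in replicate 2, and the ratio of counts per library total was 234.9 (exact 95% interval 64.96 to 1941, counting error only). The fitted log2 fold change of LAMB3 was 6.86 (SE 0.83), and it was 10.23 without fibroblast replicate 2 and 6.13 without fibroblast replicate 1. LAMA3 was 0.55 to 1.42 TPM in fibroblasts and 0.63 to 4.31 TPM in the clones and was not called. LAMC3 was at 0 in the 4 fibroblast libraries and at most 0.71 TPM in the clones, at least 29.87-fold higher when fibroblasts are set at 3 counts over the group.

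**Figure D2:**
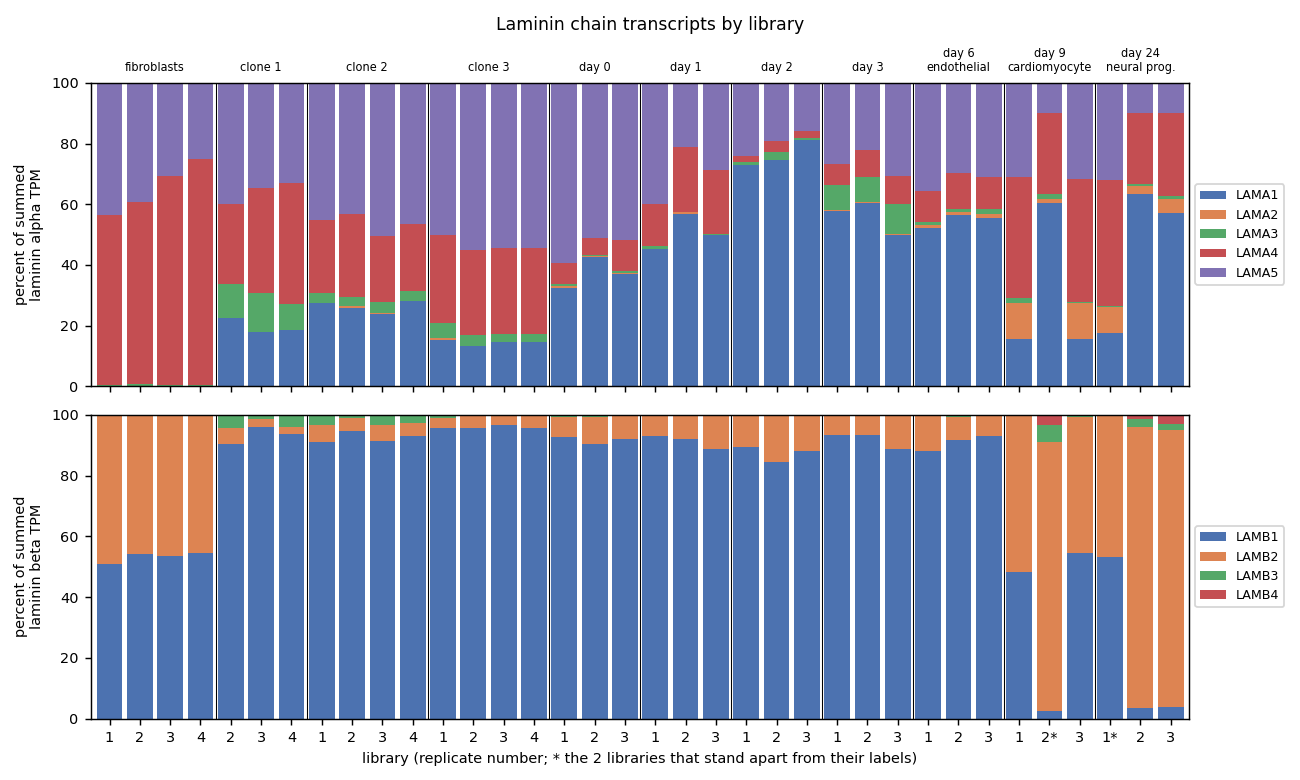
Share of each chain in the summed TPM of the laminin alpha and of the beta chains (vertical axes, percent) in the 36 libraries (horizontal axis). Fibroblasts are divided between LAMA4 and LAMA5 and between LAMB1 and LAMB2, LAMA1 is the largest alpha share from day 1 to day 6, and LAMB2 takes 88.31% to 92.51% of the beta chains in the library labelled cardiomyocyte replicate 2 and in neural progenitor replicates 2 and 3.

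Most receptor subunits for arginine-glycine-aspartate ligands were lower in the clones. ITGA5, the fibronectin receptor subunit, was 843.1, 737.5, 572.7 and 544.7 TPM in fibroblasts. The clones ranged from 12.41 through a median of 22.48 to 36.17 TPM (log2 fold change -5.19, SE 0.16, edgeR adjusted p 1.12e-14). ITGA8, which binds nephronectin, was 459.5, 425.4, 447.3 and 434.8 TPM in fibroblasts and 1.88, 3.02 and 5 TPM (lowest, median, highest) in the clones (log2 fold change -7.30, SE 0.12). Both were high in each fibroblast library and did not overlap with the clones. ITGB3, a vitronectin receptor subunit, was 31.05, 25.2, 28.76 and 23.2 TPM in fibroblasts and 3.25 to 9.53 TPM in the clones (log2 fold change -2.49, SE 0.14). ITGB8, which binds latent TGF-beta, was 4.98, 3.94, 8.58 and 6.74 TPM in fibroblasts and at most 1.17 TPM in the clones (log2 fold change -5.28, SE 0.43; -6.08 without clone 1 replicate 4). ITGAV, the alpha partner of both, was 78.81, 82.87, 156.3 and 153.9 TPM in fibroblasts and 55.44, 143.1 and 197 TPM (lowest, median, highest) in the clones, and the groups overlapped (log2 fold change -0.08, SE 0.17, adjusted p 0.7074 by edgeR). Against fibroblast replicates 1 and 2 alone ITGAV was higher in the clones, by a log2 fold change of 0.51. ITGB5 was 50.53, 43.59, 37.3 and 30.76 TPM in fibroblasts and 24.78, 31.69 and 42.86 TPM in the clones; its log2 fold change of -0.46 passed, but became 0.02 against fibroblast replicates 3 and 4 alone.

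The collagen receptor subunits split. ITGA1 was 63.42, 72.28, 88.99 and 92.32 TPM in fibroblasts and at most 1.07 TPM in the clones (log2 fold change -8.03, SE 0.28). ITGA10 was lower as well (log2 fold change -2.86, SE 0.48), from 2.48 to 3.76 TPM in fibroblasts. ITGA11 was 36.56, 27.37, 19.82 and 19.04 TPM in fibroblasts and 21 to 29.85 TPM in the clones, overlapped, and was not called; against fibroblast replicates 3 and 4 alone its log2 fold change was 0.41. ITGA2 was higher in the clones, with 2.87 to 5.31 TPM against 0 to 0.73 TPM (log2 fold change 3.40, SE 0.48). ITGA4, which binds fibronectin and VCAM1, was at 0 in the 4 fibroblast libraries and 3.75, 5.84 and 8.59 TPM (lowest, median, highest) in the clones, at least 767.8-fold higher against 3 counts over the fibroblast group. ITGA9, which binds tenascin and osteopontin, was 0 to 0.45 TPM in fibroblasts and 1.81 to 4.84 TPM in the clones (log2 fold change 3.98, SE 0.47). Without fibroblast replicate 2, which holds the highest level of both in that group, the values were 4.60 for ITGA2 and 4.65 for ITGA9. ITGB4, the beta subunit of hemidesmosomes, was 1.21 to 2.02 TPM in fibroblasts and 7.15 to 13.7 TPM in the clones (log2 fold change 2.46, SE 0.20).

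ITGB1 was 2592, 3039, 5589 and 5873 TPM in fibroblast replicates 1 to 4, and its lowest, median and highest levels in the clones were 960.4, 1385 and 1777 TPM. Each fibroblast library was above each clone library (log2 fold change -1.75, SE 0.13, edgeR adjusted p 1.61e-09). The fibroblast libraries themselves differed, with a mean of 2816 TPM in the deeper pair, replicates 1 and 2, and 5731 TPM in the shallower pair, replicates 3 and 4. ITGBL1 showed the same division, with 93.17 and 100.2 TPM in replicates 1 and 2 and 207.8 and 210.8 TPM in replicates 3 and 4, against at most 2.87 TPM in the clones (log2 fold change -8.33, SE 0.50; -9.11 without clone 1 replicate 3). The laminin receptor subunit ITGA6 was 64.82, 73.81, 114.2 and 123.9 TPM in fibroblasts and 53.38 to 144.9 TPM in the clones; its small call (log2 fold change -0.37, SE 0.13) was lost without fibroblast replicate 3 or 4. ITGA3, the other abundant laminin receptor subunit, was 21.69 to 30.7 TPM in fibroblasts and 14.58 to 42.16 TPM in the clones, with overlap and no call (log2 fold change -0.27, SE 0.13). ITGA7, the laminin receptor subunit of muscle, was 10.07 to 14.12 TPM in fibroblasts and at most 0.37 TPM in the clones (log2 fold change -6.69, SE 0.44). Among members of low level, ITGAL, ITGA2B and ITGAM, subunits of leukocytes and platelets, were called lower in the clones (log2 fold changes -3.15, SE 0.36; -4.97, SE 0.77; -2.73, SE 0.72), ITGA2B at -4.34 without fibroblast replicate 2 and ITGAM at -3.43 without clone 1 replicate 3, and ITGAD, ITGAE, ITGB2, ITGB6, ITGB7 and LAMA2 were not called. With either pair of fibroblast libraries alone, 29 (replicates 1 and 2) and 28 (replicates 3 and 4) members passed. The share of all genes called with each pair is not given here. The fibroblast libraries hold 8 fibroblast markers at a summed 19795 to 37507 TPM, against 136.7 to 282.4 TPM in the clones.

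**Figure D3:**
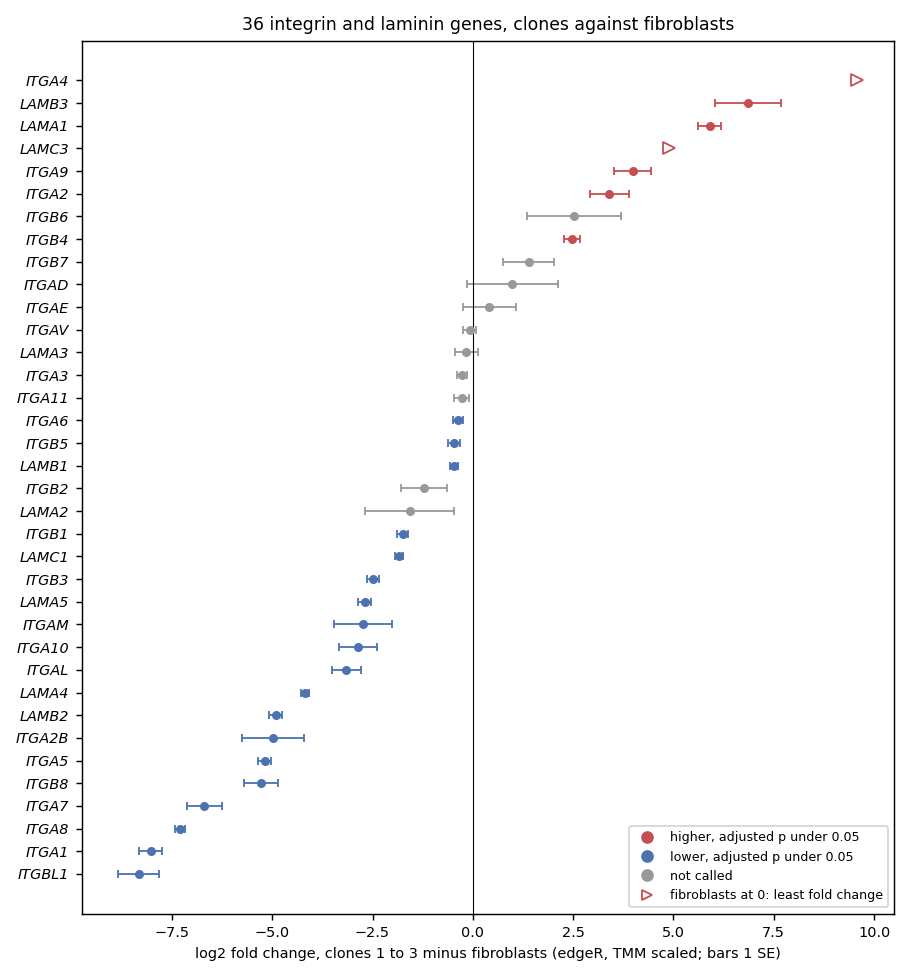
Log2 fold change of 36 members, clones 1 to 3 minus fibroblasts (horizontal axis), sorted from the lowest to the highest; points are edgeR estimates, bars are 1 SE, and open triangles are least fold changes of genes at 0 in all fibroblast libraries. The 19 members called lower reach -8.33 for ITGBL1, and the least fold change of ITGA4 is the farthest to the right.

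Other genes of matrix adhesion were mostly lower in the clones too. Of 20 basement membrane partners tested, 7 were higher and 11 lower, where 38.6% of all genes were higher and 35.9% lower. COL15A1, a basement membrane zone collagen, fell from a mean of 1244 TPM in fibroblasts to 1.31 TPM in the clones (log2 fold change -10.11, SE 0.21), and HSPG2, the proteoglycan perlecan, fell from 321.7 to 5.79 TPM. Of 26 other integrin ligands tested, 4 were higher and 16 lower, among them CDH1, the E-cadherin gene, at 1453 TPM in the clones and 0.535 TPM in fibroblasts (log2 fold change 11.16, SE 0.37). Laminin receptors other than integrins gave 2 higher and 10 lower of 16, with BCAM, the Lutheran glycoprotein that binds LAMA5, at 103.3 TPM in the clones and 7.5 TPM in fibroblasts (log2 fold change 3.56, SE 0.18). Adhesion proteins linked to integrins gave 7 higher and 28 lower of 38; TNS1, a tensin, fell by 9.78 on the log2 scale, and COL17A1, a hemidesmosome collagen, had a log2 fold change of 7.0. The medians of these lists were -1.5, -3.23, -0.85 and -1.97, below the 0.11 of all genes.

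Among clones 1 to 3, clone 3 had the lowest levels of several laminin chains and receptors. Between clones 1 and 3, 13 of 37 members passed, 12 of them higher in clone 1, where the comparison called 6.7% of all genes, 3.12% higher and 3.58% lower (edgeR, adjusted p under 0.05). Their median log2 fold change was 0.65, against -0.03 over all genes. Between clones 2 and 3, 6 of 37 passed, all higher in clone 2, beside 4.22% of all genes (2.06% higher, 2.16% lower), with medians of 0.34 and 0.01. Between clones 1 and 2, 8 of 37 passed, 4 in each direction, beside 9.31% of all genes (4.47% higher, 4.84% lower). These comparisons share libraries with each other. The clones also differ in the other parts of their labels given above, and each clone is 1 line. Differences between lines and between those label conditions therefore cannot be told apart.

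ITGAV was 197, 175.9 and 144.8 TPM in clone 1, 143.1, 154.1, 149.8 and 107.7 TPM in clone 2, and 75.63, 55.44, 56.49 and 78.07 TPM in clone 3. Clone 3 lay below both other clones without overlap, and the edgeR log2 fold change was 1.44 (SE 0.22, adjusted p 0.001311) for clone 1 and 0.97 (SE 0.21, adjusted p 0.01177) for clone 2 over clone 3. The latter call was lost without clone 3 replicate 2 or 3. ITGB1 was 1532, 1777 and 1773 TPM in clone 1, 1441, 1624, 1385 and 1294 TPM in clone 2, and 1036, 960.4, 983.2 and 1036 TPM in clone 3. It passed between clones 1 and 3 (log2 fold change 0.75, SE 0.18) but lost the call in 4 of 7 refits without 1 library, with an edgeR adjusted p of up to 0.06949. ITGA3 was 42.16, 32.49 and 40.18 TPM in clone 1, 24.01, 23, 28.46 and 23.86 TPM in clone 2 and 16.1, 16.11, 14.58 and 15.53 TPM in clone 3. The clones did not overlap, and clone 1 was higher than clone 2 (log2 fold change 0.80, SE 0.17) and than clone 3 (1.29, SE 0.17); clone 2 over clone 3 was not called (adjusted p 0.1062 by edgeR).

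ITGA6 followed another order and was highest in clone 2, at 127, 129.1, 144.9 and 95.06 TPM, against 53.74, 64.41 and 78.24 TPM in clone 1 and 56.66, 53.85, 53.38 and 70.64 TPM in clone 3. Its log2 fold change was -0.75 (SE 0.17) for clone 1 over clone 2, a call lost without clone 1 replicate 2, and 0.90 (SE 0.16) for clone 2 over clone 3. ITGA8 was likewise highest in clone 2 (3.63 to 5 TPM) and lowest in clone 3 (1.88 to 2.18 TPM). ITGA5 was 25.21, 25.71 and 22.48 TPM in clone 1, 22.13, 24.02, 36.17 and 22.77 TPM in clone 2 and 12.41, 12.86, 14.06 and 16.21 TPM in clone 3. Clone 3 did not overlap with the others, but the ITGA5 call was lost in 6 of 7 refits without 1 library against clone 1 and in all 8 against clone 2.

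LAMA1 was 7.08, 5.93 and 6.02 TPM in clone 1, 9.32, 8.93, 9.25 and 8.79 TPM in clone 2 and 3.34, 3.27, 3.45 and 3.58 TPM in clone 3, with no overlap between any pair of clones. It passed for clone 2 over clone 3 (log2 fold change 1.23, SE 0.21) and for clone 1 over clone 3 (0.89, SE 0.22), the latter lost in 4 of 7 refits. LAMA3 was 3.42, 4.31 and 2.88 TPM in clone 1 and at most 1.37 TPM in clones 2 and 3, and was higher in clone 1 against both (log2 fold changes 1.76, SE 0.36, and 2.10, SE 0.36). LAMB3 was 5.54, 1.94 and 5.21 TPM in clone 1 and 1.32, 0.67, 0.41 and 0.55 TPM in clone 3 (log2 fold change 2.50, SE 0.57), lost without clone 3 replicate 2, 3 or 4. In the other lists, the calls between clones 1 and 3 were all higher in clone 1. They were 3 of 20 basement membrane partners, 5 of 26 other integrin ligands, 2 of 16 other laminin receptors and 5 of 38 adhesion proteins. Of all genes, 3.12% were called higher and 3.58% lower in that comparison. COL17A1, which sits with ITGB4 in hemidesmosomes, was also higher in clone 1, with means of 50.92, 16.48 and 15.65 TPM in clones 1, 2 and 3. The abundant chains LAMB1, LAMC1 and LAMA5 passed in none of the comparisons between clones. Without clone 3 replicate 2, 3 or 4 the number of members called between clones 1 and 3 was 7, 6 and 7. Of the members called, 6 of 13 (clones 1 and 3), 3 of 6 (clones 2 and 3) and 3 of 8 (clones 1 and 2) passed in every refit without 1 library.

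Clone 8 was then followed through the somite course. From day 0 to day 1, 18 of 34 members tested passed, 7 higher and 11 lower, where 40.1% of all 13597 genes passed, 20% higher and 20.1% lower (edgeR, adjusted p under 0.05). The median log2 fold change was -0.33 over members and 0 over all genes. The laminin receptor subunits ITGA6 and ITGA3 fell the most among abundant members, while ITGA5 and ITGB5 rose.

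ITGA6 was 98.26, 80.66 and 88.75 TPM at day 0 and 12.7, 8.27 and 7.95 TPM at day 1 (log2 fold change -2.99, SE 0.15, edgeR adjusted p 7.84e-12). ITGA3 went from 22.88, 16.79 and 18.89 TPM to 1.76, 1.05 and 0.74 TPM (log2 fold change -3.82, SE 0.22). Neither gene overlapped between the days. ITGB4, which pairs with ITGA6 in hemidesmosomes, fell from 18.78, 14.15 and 15.77 TPM to 9.87, 4.45 and 3.2 TPM (log2 fold change -1.29, SE 0.27). ITGA2 fell from 4.12 to 4.48 TPM to at most 1.48 TPM, and ITGB8 from 0.87 to 1.12 TPM to at most 0.23 TPM. ITGA5 rose from 17.03, 13.84 and 14.14 TPM to 145.1, 70.43 and 66.82 TPM (log2 fold change 2.84, SE 0.21), and ITGB5 from 26.89, 25.96 and 22.81 TPM to 81.39, 49.42 and 44.85 TPM (log2 fold change 1.42, SE 0.16). Replicate 1 was the highest of the day 1 libraries for both. ITGAV was 48.34, 33.44 and 41.79 TPM at day 0 and 67.81, 45.15 and 39.93 TPM at day 1; its call (log2 fold change 0.53, SE 0.14) came with overlapping levels and was lost without day 0 replicate 2. ITGB1 was 727.9, 667.6 and 735.7 TPM and then 761.6, 715.9 and 827.6 TPM, and its call (0.36, SE 0.13) was lost in 5 of 6 refits.

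Laminin chains moved in both directions at day 1. LAMB1 fell from 107.8, 99.08 and 102.2 TPM to 79.55, 42.68 and 35.97 TPM (log2 fold change -0.77, SE 0.18). LAMC1 was 105.5, 64.85 and 81.03 TPM at day 0 and 65.52, 25.53 and 27.32 TPM at day 1 (log2 fold change -0.90, SE 0.25), with day 1 replicate 1 just above the lowest day 0 library. LAMB2 was lower as well (log2 fold change -0.67, SE 0.20). LAMC3, a gamma chain of less common laminins, rose from 5.15, 3.71 and 4.03 TPM to 17.46, 7.32 and 5.23 TPM (log2 fold change 1.39, SE 0.33) and took 19% ± 3.28 of the summed gamma chain TPM (n = 3). LAMA4 rose by 1.15 (SE 0.27) on the log2 scale, from 1.24 to 2.71 TPM to 2.68 to 5.89 TPM. LAMA1 (9.29 to 11.64 TPM at day 0, 6.35 to 19.06 TPM at day 1) and LAMA5 (11.13 to 21.23 and 3.65 to 16.86 TPM) overlapped and were not called. The other lists stand beside 20% of all genes higher and 20.1% lower at day 1. Of 18 basement membrane partners tested, 2 rose and 9 fell, and of 24 other integrin ligands 6 rose and 10 fell. CYR61, a matricellular ligand of ITGAV receptors, was down from a mean of 155.1 to 6.57 TPM. Other laminin receptors gave 2 higher and 6 lower of 16, with BCAM down from 116.8 to 20.71 TPM. In a fit of all 21 clone 8 libraries, whose spread includes the day 9 and day 24 groups, 5 members passed for day 1, 6 for day 2 against day 1 and 10 for day 6 against day 0. The share of all genes called in that fit is not given here, so these numbers are no result about the members. As a check of the label, 6 primitive streak markers summed to 711.2 to 1206 TPM at day 1 and to 26.5 to 35.9 TPM at day 0.

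From day 1 to day 2, 16 of 34 members passed, 7 higher and 9 lower, beside 26.2% of all genes (12.6% higher, 13.5% lower), with medians of -0.21 and -0.03. ITGA6 returned to 124, 90.78 and 104.4 TPM (log2 fold change 3.46, SE 0.15, edgeR adjusted p 2.02e-12) and overlapped with the 80.66 to 98.26 TPM of day 0. ITGA3 rose only to 5.85, 4.78 and 3.84 TPM (log2 fold change 2.00, SE 0.24). ITGB5 fell to 12.44, 8.02 and 9.79 TPM (log2 fold change -2.53, SE 0.17), below its day 0 level. ITGA5 was 83.24, 49.2 and 51.53 TPM and overlapped with day 1; its call (-0.62, SE 0.20) was lost in 3 of 6 refits. LAMA1 rose to 42.11, 24.4 and 25.68 TPM (log2 fold change 1.40, SE 0.26) and made up 76.2% ± 4.36 of the alpha chain TPM (n = 3), its highest group share. LAMA4 fell to 1.09, 1.12 and 0.71 TPM (log2 fold change -2.09, SE 0.30). LAMB1 (80.78, 49.56 and 52.06 TPM) and LAMC1 (55.19, 28.81 and 34.36 TPM) overlapped with day 1 and were not called. Of the other lists, 5 of 18 basement membrane partners rose and 4 fell, and 7 of 24 other integrin ligands rose and 5 fell. TNC, the tenascin C gene, rose from a mean of 28.61 to 114.9 TPM. Without day 2 replicate 2 the number of members called was 11.

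From day 2 to day 3, 25 of 34 members passed, 21 higher and 4 lower, beside 51.2% of all genes, of which 26.6% were higher and 24.5% lower. The members' median log2 fold change was 1.36 and that of all genes 0.05. All 10 laminin chains tested passed, 9 of them higher, and 5 of 8 beta subunits passed, all higher. These day 3 libraries are the ones with low somite and high epithelial, smooth muscle and cardiomyocyte markers. The cardiomyocyte list was 2157 to 2651 TPM, against 288 to 450 TPM at day 2. The fibroblast list was 504.1 to 762.2 TPM, against 57.3 to 81.6 TPM. The epithelial list was 12310 to 16053 TPM, against an already high 6816.5 to 9112 TPM at day 2. The part of these cell types in the member changes was not tested.

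LAMB1 rose to 351.9, 267 and 229.4 TPM, more than in any other group (log2 fold change 2.00, SE 0.19, edgeR adjusted p 4.66e-08). LAMA1 rose to 118.5, 78.98 and 53.52 TPM (log2 fold change 1.22, SE 0.25), LAMA5 to 54.51, 28.86 and 32.96 TPM (2.01, SE 0.42), and LAMC1 to 153.3, 99.14 and 88.07 TPM (1.31, SE 0.25). None of these levels overlapped with day 2, and replicate 1 was the highest in each. LAMA3 rose from at most 0.86 TPM to 16.77, 10.67 and 10.5 TPM (log2 fold change 4.15, SE 0.42), its highest level in the series, and LAMA4 rose to 14.51, 11.78 and 9.65 TPM (3.41, SE 0.30). LAMB2 rose to 24.18, 18.85 and 28.15 TPM (1.28, SE 0.20). LAMC3 alone among the chains tested fell, from 6.16, 6.04 and 4.2 TPM to 1.12, 0.61 and 2.13 TPM (log2 fold change -2.29, SE 0.40; -2.90 without day 3 replicate 3).

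On the receptor side, ITGA6 rose to 521.4, 417.2 and 367.6 TPM (log2 fold change 1.8, SE 0.13) and ITGA3 to 70.2, 63.4 and 49.44 TPM (3.45, SE 0.20). ITGB3 rose from 0.58, 0.1 and 0.62 TPM to 48.7, 38.85 and 41.14 TPM (log2 fold change 6.28, SE 0.32). ITGB6, an epithelial subunit that activates latent TGF-beta, was at 0 in the 3 day 2 libraries and 7.64, 9.55 and 9.14 TPM at day 3, at least 121.2-fold higher against 3 counts over the day 2 group. ITGB6 stayed at or below 1.62 TPM in every other group. ITGB5 rose to 43.19, 38.08 and 39.64 TPM (1.77, SE 0.17) and ITGB1 from 609.7, 567.7 and 563.6 TPM to 1551, 1340 and 1221 TPM (1.01, SE 0.13). ITGA5 (84.21, 70.48 and 64.25 TPM) and ITGAV (44.58, 38.14 and 36.15 TPM) overlapped with day 2 and were not called. ITGA4 fell to 0.4, 0.32 and 0.72 TPM (log2 fold change -2.21, SE 0.27), and ITGA11 to 0.51, 0.95 and 0.25 TPM (-2.52, SE 0.49). Members of lower level also rose, namely ITGA2 (to 21.68, 12.48 and 14.2 TPM), ITGA9 (to 14.09, 10.66 and 15.67 TPM), ITGA10, ITGA7, ITGB8, ITGBL1 and LAMA2. Of the 25 calls, 24 passed in every refit without 1 library, the exception being ITGAE.

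Other adhesion genes moved with them, in a comparison where 26.6% of all genes were higher and 24.5% lower. Other integrin ligands gave 20 higher and 0 lower of 24 tested, with SPP1, the osteopontin gene, at a mean of 49.55 TPM against 0.103 TPM at day 2 (log2 fold change 7.98, SE 0.60). Of 18 basement membrane partners, 13 were higher and 1 lower, and COL4A5, a type IV collagen chain, rose from 9.26 to 71.3 TPM. Adhesion proteins linked to integrins gave 27 higher and 3 lower of 37, and NEDD9 rose by 5.18 (SE 0.18) on the log2 scale. Taking the calls of day 1 and day 3 side by side, 8 members were lower at day 1 than at day 0 and higher at day 3 than at day 2, among them ITGA3, ITGA6, LAMB1 and LAMC1. Those 8 were chosen by these calls, so their course is a description.

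**Figure D4:**
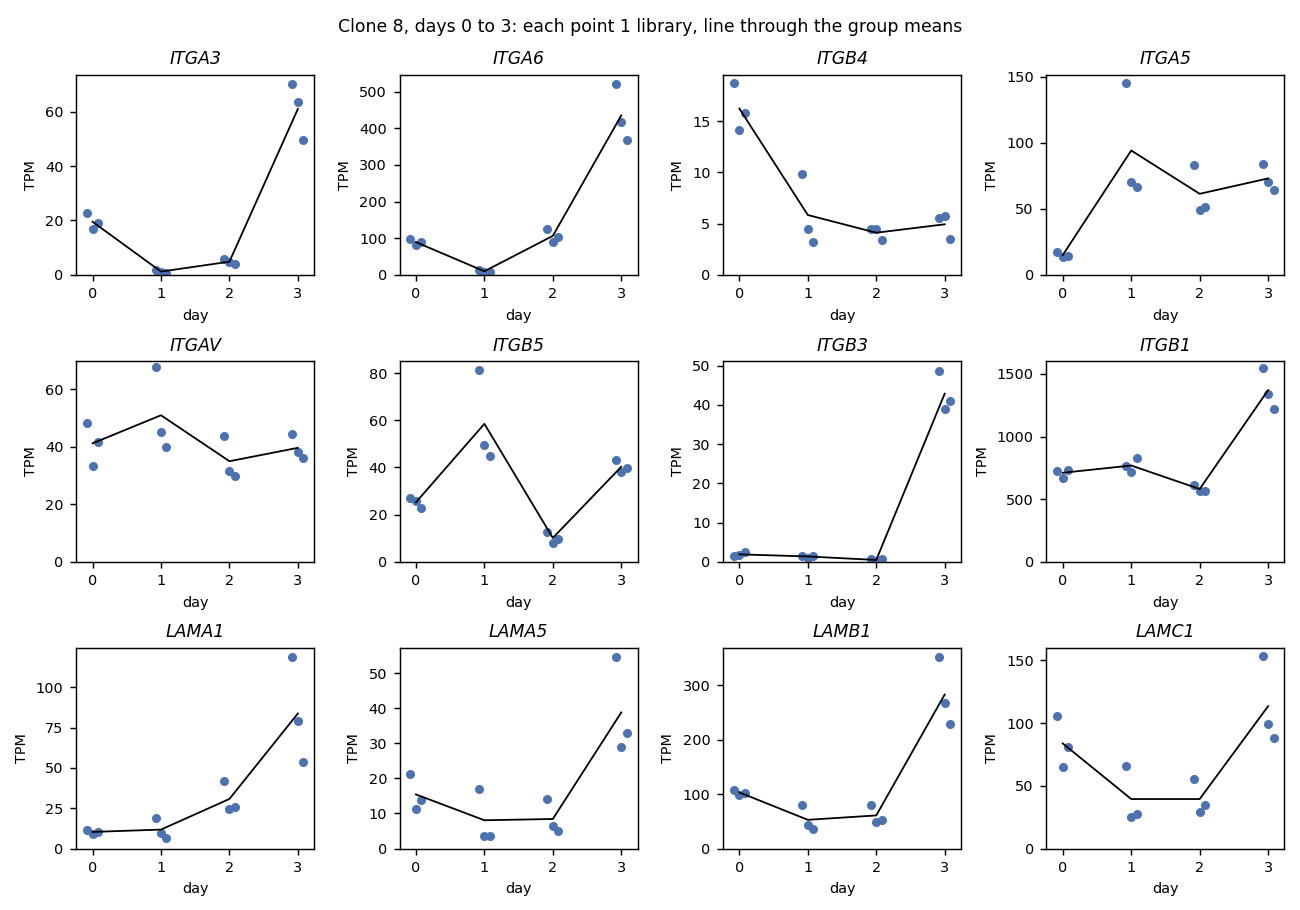
Level in TPM (vertical axes from 0) of 12 members at days 0 to 3 of clone 8 (horizontal axes); each point is 1 library and the line joins the group means. ITGA3 and ITGA6 are lowest at day 1, ITGA5 and ITGB5 peak there, LAMA1 increases at days 2 and 3, and LAMB1, ITGB3 and ITGB1 are highest at day 3.

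The endothelial libraries of day 6 were compared with day 0. Of 34 members tested 24 passed, 18 higher and 6 lower, where 47.7% of all genes passed, 23.7% higher and 24% lower (edgeR, adjusted p under 0.05). The medians were 0.58 for members and -0.03 for all genes. Laminin chains gave 8 higher and 1 lower of 10. A list of 8 endothelial markers summed to 596.3 to 683.6 TPM in these libraries and to 6 to 11 TPM at day 0. The epithelial list stood at 3669 to 4604 TPM, below its 6114.5 to 6592.6 TPM at day 0. The fibroblast list stood at 737.8 to 1156 TPM, above its 149.7 to 317.6 TPM at day 0. The part of such cells in the result was not tested.

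ITGA8 rose from 3.78, 1.81 and 2.22 TPM to 20.9, 21.92 and 24.56 TPM (log2 fold change 3.10, SE 0.36, edgeR adjusted p 8.22e-07). ITGA9 rose from 3.11, 2.7 and 2.01 TPM to 17.81, 17.04 and 20.79 TPM (2.86, SE 0.26), and ITGA1, a collagen and laminin receptor subunit of the vessel wall, from at most 0.73 TPM to 7.36, 6.76 and 7.86 TPM (4.02, SE 0.48). None of these overlapped with day 0. ITGA5 rose to 53.56, 38.2 and 34.58 TPM (1.46, SE 0.21). LAMA1 rose to 42.43, 29.61 and 33.28 TPM (1.74, SE 0.26) and LAMA4 to 8.34, 6.21 and 6.38 TPM (1.68, SE 0.27). LAMB1 (137.6, 136.9 and 169.5 TPM) and LAMC1 (143.4, 110.4 and 147 TPM) were above day 0 with small log2 fold changes of 0.51 (SE 0.18) and 0.66 (SE 0.25), calls lost in 3 and 4 of 6 refits. LAMA5, at 29.14, 15.64 and 18.59 TPM, overlapped with day 0 and was not called. ITGA6 (97.65, 95.01 and 104.2 TPM) and ITGA3 (21.94, 23.85 and 27.44 TPM) stood near their day 0 levels and were not called, with log2 fold changes of 0.13 (SE 0.13) and 0.31 (SE 0.17). ITGB4 fell to 0.9, 0.78 and 1.41 TPM (-3.95, SE 0.32), and ITGB7, ITGA11, ITGA4, ITGAL and LAMC3 were lower too. Of 18 basement membrane partners 9 rose and 1 fell, and of 24 other integrin ligands 15 rose and 5 fell. Beside these, 23.7% of all genes were higher and 24% lower. NID2, a nidogen that links laminin to type IV collagen, rose from a mean of 4.28 to 27.06 TPM and HSPG2 from 7.03 to 30.57 TPM. The call was lost without at least 1 library for 7 of the 24 members, ITGA2, ITGAL, ITGB1, LAMA3, LAMB1, LAMB2 and LAMC1.

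The day 9 and day 24 groups were compared as labelled and without the library labelled cardiomyocyte replicate 2 and the library labelled neural progenitor replicate 1. As labelled, 15 of 35 members passed for day 9 against day 0 (7 higher, 8 lower; 41.7% of all genes, 22.9% higher and 18.8% lower) and 14 of 35 for day 24 against day 0 (6 higher, 8 lower; 42.7% of all genes, 23.8% higher and 19% lower). Without both libraries, 25 members passed for day 9 (14 higher, 11 lower; 61.7% of all genes, 30.3% higher and 31.4% lower) and 26 for day 24 (7 higher, 19 lower; 63.8%, with 32% higher and 31.8% lower). Between the labelled groups, no member and no gene at all (0% of 14248) passed in edgeR, with 1 member and 753 genes at an unadjusted p under 0.05. At that level DESeq2 gave 1 member and 921 of all genes, and limma on log2(TPM + 1) gave 3 members and 1493 of all genes. Without both libraries 23 members passed, 17 higher in cardiomyocytes and 6 lower, beside 63.7% of all genes (31.9% higher, 31.8% lower). The remaining groups hold 2 libraries each, and the text below gives the 3 values of each labelled group in the order of replicates 1, 2 and 3.

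LAMB1 was 55.6, 0.98 and 40.93 TPM in the libraries labelled cardiomyocyte and 58.67, 1.67 and 1.33 TPM in those labelled neural progenitor. The library labelled cardiomyocyte replicate 2 was thus low with neural progenitor replicates 2 and 3, and neural progenitor replicate 1 high with cardiomyocyte replicates 1 and 3. Between labelled groups the log2 fold change was 0.70 (SE 1.15), and without both libraries it was 5.71 (SE 0.32, edgeR adjusted p 8.54e-13). Against day 0 it was -6.41 (SE 0.32) for neural progenitors and -0.69 (SE 0.21) for cardiomyocytes without both libraries, and -1.97 (SE 1.18) and -1.27 (SE 1.16) as labelled, where neither passed. LAMC1 followed the same division, with 87.65, 11.26 and 57.92 TPM and 85.61, 15.77 and 9.84 TPM (3.23, SE 0.35, without both; 0.62, SE 0.78, as labelled). LAMA1 went the other way, with 4.87, 14.82 and 3.63 TPM and 5.45, 21.21 and 13.17 TPM (-1.27, SE 0.34, without both; -0.47, SE 0.39, as labelled).

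LAMB2 was 59.41, 32.95 and 33.62 TPM and 51.31, 44.46 and 31.48 TPM, and its levels overlapped between libraries with cardiomyocyte and with neural markers. Without both libraries it was called higher in cardiomyocytes (1.04, SE 0.25, edgeR adjusted p 8.39e-04), and as labelled it was not (0.27, SE 0.34). In TPM its means without both were 46.52 in cardiomyocytes and 37.97 in neural progenitors, a smaller difference than the fold change on TMM-scaled counts. It rose against day 0 in both groups with all libraries (log2 fold changes 2.53, SE 0.36, and 2.26, SE 0.36) and without both (2.81, SE 0.23, and 1.76, SE 0.23). As a share of beta chains it was 51.66% and 44.87% in cardiomyocyte replicates 1 and 3 and 92.51% and 91.19% in neural progenitor replicates 2 and 3, against 7.74% ± 1.18 at day 0 (n = 3). LAMA4 rose in both groups likewise, at 12.41, 6.59 and 9.34 TPM and 12.8, 7.86 and 6.35 TPM (2.75, SE 0.28, and 1.39, SE 0.30, without both; 2.44, SE 0.45, and 2.12, SE 0.45, as labelled). LAMA2, the alpha chain of adult muscle basement membrane, was highest in the libraries with cardiomyocyte markers, at 3.69, 0.36 and 2.72 TPM and 2.64, 0.96 and 1.05 TPM, and was higher than at day 0 in both groups (5.64, SE 0.57, and 3.18, SE 0.64, without both; 5.12, SE 1.04, and 4.32, SE 1.02, as labelled). LAMA5 was 9.65, 2.42 and 7.35 TPM and 9.85, 3.29 and 2.26 TPM and passed between the groups only without both (2.32, SE 0.55; 0.51, SE 0.71, as labelled).

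ITGB1 was 1417, 291.3 and 1243 TPM in the libraries labelled cardiomyocyte and 1451, 354.9 and 335.9 TPM in those labelled neural progenitor. Against day 0 its log2 fold change was 0.18 (SE 0.63) for day 24 as labelled and -1.42 (SE 0.15) without both libraries, a change of sign; for day 9 it was 0.83 (SE 0.63) and 1.31 (SE 0.14). ITGB8 was 7.3, 42.33 and 6.08 TPM and 7.26, 63.39 and 42.63 TPM, above the 0.87 to 1.12 TPM of day 0 in each library (log2 fold changes without both 3.20, SE 0.31, for day 9 and 5.45, SE 0.31, for day 24; as labelled 4.23, SE 0.67, and 4.97, SE 0.69). Of the members called at day 24 it had the highest log2 fold change against day 0 in both settings. It was higher at day 24 than at day 9 without both (-2.25, SE 0.30, day 9 minus day 24) and not called as labelled (-0.74, SE 0.58). ITGA8 was 13.76, 0.28 and 7.29 TPM and 12.63, 0.22 and 0.2 TPM (6.3, SE 0.69, without both), ITGA9 21.53, 0.87 and 12.58 TPM and 17.07, 1.16 and 0.33 TPM (4.97, SE 0.42), and ITGA1 5.2, 0.26 and 3.41 TPM and 6.27, 0.17 and 0.25 TPM (5.25, SE 0.75). As labelled, their log2 fold changes were 0.70 (SE 1.18), 0.93 (SE 1.05) and 0.42 (SE 1.15), and none passed. These 3 alpha subunits were high in the libraries with cardiomyocyte markers and low in those with neural markers. The libraries with cardiomyocyte markers also held the fibroblast list at 1614 to 2637 TPM and the smooth muscle list at 3911 to 4816 TPM. In the libraries with neural markers these lists stood at 25.6 to 45.7 and 11.4 to 21.5 TPM. The part of such cells in the member differences between day 9 and day 24 was not tested.

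ITGA6 was below its day 0 level in each of the 6 libraries, at 32.12, 39.47 and 23.82 TPM and 30.63, 61.48 and 49.64 TPM (log2 fold changes -1.30, SE 0.15, and -1.10, SE 0.15, as labelled; -1.27, SE 0.16, and -1.06, SE 0.16, without both). ITGA3 was lower than at day 0 as well, at 4.75, 1.46 and 1.37 TPM and 5.03, 2.4 and 0.56 TPM. ITGA11 and ITGB4 fell to at most 1.13 and 1.05 TPM. ITGA5 was 22.35, 1.4 and 13.34 TPM and 22.57, 3.49 and 2.6 TPM, ITGB5 was 18.29, 3.52 and 11.17 TPM and 15.3, 6.46 and 5.36 TPM, and ITGB3 was 7.22, 1.18 and 3.9 TPM and 4.47, 0.2 and 1.24 TPM. All 3 were higher in cardiomyocytes without both libraries (3.23, SE 0.34; 2.04, SE 0.26; 4.35, SE 0.54) and not called as labelled (0.47, SE 0.82; 0.50, SE 0.54; 1.13, SE 0.81). ITGAV was 63.94, 24.42 and 49.14 TPM and 59.84, 34.65 and 31.75 TPM (1.5, SE 0.18, without both, and 0.35, SE 0.41, as labelled). ITGA6 was not called between the groups in either setting (-0.22, SE 0.17, without both). In TPM, however, its means without both were 27.97 in cardiomyocytes and 55.56 in neural progenitors, with no overlap. The fold change rests on TMM-scaled counts, and the missing call therefore depends on the scaling. ITGAL, a leukocyte subunit, was 0.14, 2.63 and 0.78 TPM and 0.81, 7.86 and 8.89 TPM. The leukocyte list stood at 23.9 to 28.2 TPM in the 3 libraries with neural markers and 1.76 to 2.41 TPM in the other 3. In other groups the order differed. The endothelial libraries held 0.27 to 1.73 TPM of ITGAL beside a list of 40.2 to 51 TPM, and fibroblasts 3.62 to 13.99 TPM beside 1.85 to 3.8 TPM. The part of such cells was not tested.

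**Figure D5:**
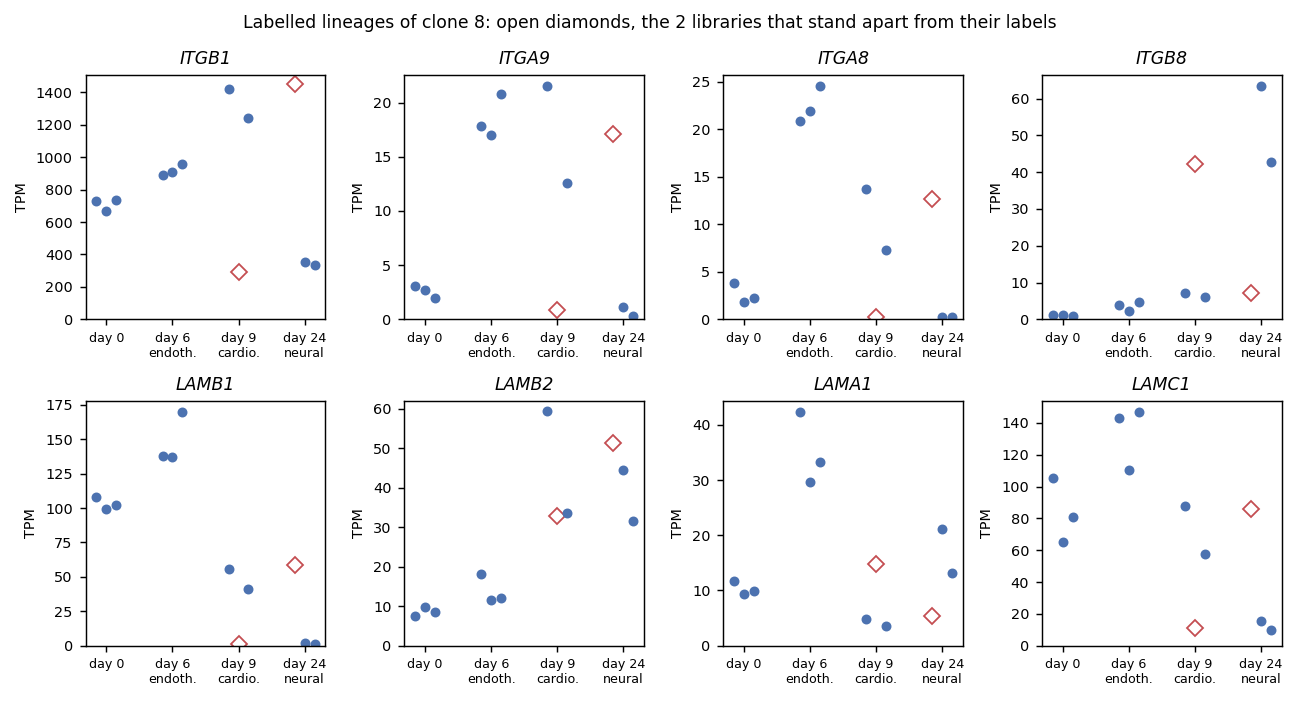
Level in TPM (vertical axes from 0) of 8 members in the 3 libraries each of day 0, day 6 endothelial, day 9 cardiomyocyte and day 24 neural progenitor labels; open diamonds are the libraries labelled cardiomyocyte replicate 2 and neural progenitor replicate 1. For ITGB1, ITGA9, ITGA8, ITGB8, LAMB1, LAMA1 and LAMC1 each diamond lies nearer to the filled points of the other group than to its own, while for LAMB2 the groups overlap.

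The endothelial libraries were last set against the mean of the day 9 and day 24 groups. As labelled, 17 of 35 members passed, 11 higher and 6 lower in endothelial cells, beside 33.2% of all genes (17.4% and 15.8%); without both libraries 27 passed, 20 higher and 7 lower, beside 49.4% (29% and 20.4%). Medians as labelled were 1.17 for members and -0.09 for all genes. LAMA1, at 29.61 to 42.43 TPM in endothelial cells, was above each day 9 and day 24 library (log2 fold change 1.91, SE 0.32, as labelled; 2.03, SE 0.25, without both). ITGA3 (3.02, SE 0.47; 3.41, SE 0.28, without both) and ITGA6 (1.38, SE 0.13; 1.35, SE 0.13) were higher in endothelial cells in both settings. ITGB8 (-2.50, SE 0.57; -2.25, SE 0.25) and LAMB2 (-1.69, SE 0.32; -1.59, SE 0.20) were lower in both. As labelled, ITGA7 was called lower from 2 counts in the 3 endothelial libraries, with 0.25, 0 and 0 TPM against 0.65 to 1.83 TPM. Its ratio of counts per library total was 32.21 (exact 95% interval 8.674 to 269.8, counting error only), and its fitted log2 fold change ran from -7.24 without endothelial replicate 1 to -3.75 without endothelial replicate 2. LAMB1 (4.11, SE 0.20), ITGA8 (3.90, SE 0.41) and LAMC1 (2.12, SE 0.24) passed without both libraries and not as labelled (2.18, SE 0.95; 1.66, SE 0.97; 1.33, SE 0.65). The number of members called as labelled was 11, 12 or 10 without endothelial replicate 1, 2 or 3.

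In the other lists, without both libraries, basement membrane partners were mostly higher in cardiomyocytes than in neural progenitors, with 14 higher and 2 lower of 19 tested. Of all genes, 31.9% were higher and 31.8% lower. NID1, a nidogen, had means of 51.69 TPM in cardiomyocytes and 0.755 TPM in neural progenitors (log2 fold change 6.95, SE 0.46), and AGRN, the agrin gene, of 15.39 and 87.72 TPM (-1.75, SE 0.37). VCAM1, a ligand of ITGA4 with ITGB1, had means of 2265 and 1.31 TPM (11.38, SE 0.31). As labelled, 0 of 19 basement membrane partners and 0% of all genes passed in that comparison. NID1 was 0.63 (SE 1.29), AGRN -0.78 (SE 0.47) and VCAM1 1.02 (SE 1.73). Against day 0, neural progenitors without both libraries had 2 of 19 basement membrane partners higher and 15 lower, with NID1 down from a mean of 53.98 TPM. Of all genes, 32% were higher and 31.8% lower. As labelled 1 partner was higher and 2 were lower, beside 23.8% and 19% of all genes, and NID1 was not called.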

How the data were processed

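Bulk RNA-seq libraries were made by a ligation-mediated method from about 100 ng of RNA, per the labels' protocols. The authors deposited estimated counts (expected counts) per gene, and they also deposited TPM values, which are scaled to transcript length; the submitters' processing notes name bcl2fastq, Bowtie 1.2.3, RSEM 1.2.3 and the Sscrofa11.1 assembly. Neither strand handling nor the gene annotation is given in the sources used here. Overlapping or antisense genes therefore cannot be told apart. The estimated counts were rounded to whole numbers, and edgeR 4.0.16 (R 4.3.3) ran its quasi-likelihood test after TMM scaling and filterByExpr with a minimum count of 10, and p-values were adjusted by Benjamini-Hochberg over all genes tested. Fits held the 15 fibroblast and clone libraries (14660 genes), the 15 clone 8 libraries of days 0 to 6 (13597 genes) and, for day 9 and day 24, all 21 clone 8 libraries (14248 genes). The filter removed LAMB4 from the first, ITGAD, ITGAM, LAMB3 and LAMB4 from the second, and ITGAM, LAMB3 and LAMB4 from the third. Levels are deposited TPM, shares are percent of a family's summed TPM, and fold changes against a group at 0 use 3 counts over that group as its floor. The edgeR fold changes rest on TMM-scaled counts and can differ from the ratio of the TPM values beside them.

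Members and lists were chosen with earlier results of these data known. Values in every library are given for members that pass in at least 1 comparison, reach a group mean of 20 TPM and differ at least 4-fold between group means, and up to 3 genes with at least 10 TPM are named per list and comparison. Some members outside that rule are given in full where a result turned on them. Alternatives were DESeq2 1.42.0, RLE scaling, no filter, limma 3.58.1 on log2(TPM + 1) and log2(TPM + 0.1), other library sets, a replicate block and each library left out. All 42 pairs of libraries within groups differed beyond sampling noise (chi-square per degree of freedom at least 3.533), so none was counted as a repeat. That does not show that they are independent cultures. Some pairs were closer than the rest of their group. Clone 3 replicates 2 and 3 had 4.998, against 44.56 to 66.84 in the other clone 3 pairs. Fibroblast replicates 3 and 4 had 6.389 and replicates 1 and 2 had 25.96, against 111.7 to 142.2 between these pairs. RefSeq symbols matched 20618 of 20683 genes. The method was tested on simulated data. No sequences are shown, and 1 member is counted but not reported here.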

Additional observations from a re-analysis of the deposited data

Results flagged for a closer look

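Among 68 groups of 4 libraries with a mean of at least 1 TPM, 2 members had 1 library far from the rest, by a gap to its nearest neighbour, divided by the range, above Dixon's critical value; chance gives about 1 in 20 such groups. ITGA5 was 36.17 TPM in clone 2 replicate 3 and 22.13 to 24.02 TPM in the other clone 2 libraries. LAMA5 was 19.5 TPM in the same library and 14.43 to 15.29 TPM in the others.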

How the results depend on the processing

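With 3 or 4 libraries a group and 1845333 counts in the shallowest, members of a few TPM carry wide errors. The number of members called moved by more than 1.5 times in limma on log2(TPM + 1) between clones 1 and 2 (5), in the fit of all 21 clone 8 libraries (5 for day 1 against day 0, 6 for day 2 against day 1, 10 for day 6 against day 0), and without cardiomyocyte replicate 2 and neural progenitor replicate 1 (25 for day 9 and 26 for day 24 against day 0, 27 for day 6 against days 9 and 24, 23 for day 9 against day 24). The cause was not tested. Of these fits, shares of all genes called are given above only for those without cardiomyocyte replicate 2 and neural progenitor replicate 1. Leaving out 1 library gave 26 to 29 members for clones against fibroblasts, 5 to 8, 6 to 12 and 3 to 5 for clone 1 against 2, 1 against 3 and 2 against 3, 15 to 19, 11 to 18 and 24 to 26 for days 1, 2 and 3, and 18 to 22 for day 6. For day 9 and day 24 against day 0 it gave 14 to 19 and 14 to 23, for day 6 against both 10 to 23, and for day 9 against day 24 from 0 to 13. Neural progenitor replicate 1 set the upper ends of 23, 23 and 13, clone 2 replicates 2, 3 and 4 each gave the 5, and clone 3 replicates 2 and 3 each gave the 3.

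Signs turned in these cases. Against fibroblast replicates 3 and 4 alone ITGA11 was 0.41 and ITGB5 0.02, and against replicates 1 and 2 alone ITGAV was 0.51. LAMA3 was 0.41 and 0.63 in limma at pseudocounts of 1 and 0.1. ITGB7 ranged from -2.31 to 0.54 between clones 1 and 3 when 1 library was left out, the former without clone 1 replicate 3. For day 24 against day 0, without both libraries and without neural progenitor replicate 1 alone, ITGA8 was -3.90 and -3.97, ITGB1 -1.42 and -1.49, and ITGB3 -2.40 and -2.33; leaving out any 1 library gave up to 1.69, 0.58 and 0.90 for these 3. ITGA9 was -1.83 and ITGAV -0.48 without both. Also without both, ITGB1 was 0.46 for day 6 against days 9 and 24, and ITGA3 was 1.40 and ITGAD -5.72 for day 9 against day 24.

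Of 416 member results in DESeq2, 393 kept direction and side of the threshold, 2 lost and 21 gained the call; of 424 under RLE scaling 421 did, and of 424 without a filter 416. The libraries share replicate numbers only. In no comparison did every same-numbered pair correlate over 0.1. Of 3 numbers, 2 were best matched with their own for day 1 against day 0, day 2 against day 1, day 6 against day 0 and day 9 against day 24; in no comparison were all. A replicate block gave 27 members for clones against fibroblasts, 7, 9 and 5 between clones, 19, 17 and 25 for days 1 to 3, 24 for day 6, 15 and 16 for day 9 and day 24 against day 0, 20 for day 6 against both and 0 between day 9 and day 24.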
